A study of Homo sapiens with 15 samples.

Results

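PXD101, also called belinostat, is a small molecule inhibitor of histone deacetylases, and its effect alone was measured in CP70 cells, a cisplatin-resistant derivative of the human ovarian cancer cell line A2780. The comparison sets the 3 arrays of CP70 cells given PXD101 against the 3 arrays of untreated CP70 cells, so it uses 6 of the 15 arrays of the study, and all genes were considered. Per the labels' protocols, the treated cells received 0.1 µM PXD101 for 48 h and were harvested 96 h after its removal, and the untreated cells received no drug. The other 9 arrays, which entered the estimate of spread, were A2780, CP70 exposed to decitabine (0.1 µM, 48 h), and CP70 given the same decitabine plus PXD101 (0.1 µM, 24 h), both likewise harvested 96 h after removal. The labels call the arrays biological replicates and number them 1 to 3 in each group. They name no vehicle and no harvest time for the untreated cells, so whether time in culture was matched is not known. The p-values rest on the spread between cultures and arrays within all 5 groups. Both lines are single cell lines, and the comparison holds for CP70 only.

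Histone deacetylases remove acetyl groups from lysines of histones and of many other proteins, and inhibitors such as PXD101 raise acetylation while they are present. In cultured tumour cells these inhibitors are known for raising genes such as the cell cycle inhibitor CDKN1A and for stopping division. The samples here were taken days after the drug was removed, so the comparison asks which RNA levels differed after recovery.

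Untreated replicate 2 stood apart from its group, and this bears on every result. Across genes it correlated at 0.9951, 0.9961 and 0.9967 with PXD101 replicates 1, 2 and 3, and at 0.9832 and 0.9856 with untreated replicates 1 and 3. Counted by genes, replicate 2 differed by more than 2-fold from replicate 1 at 1035 genes and from replicate 3 at 785, but from the PXD101 arrays at only 71, 29 and 16. Replicates 1 and 3 differed from each other by that much at 1 gene. No 2 of the 6 arrays held identical values. The label calls replicate 2 untreated, and it is kept under that label throughout and shown apart. RNA integrity was read from the actin control probe sets. The difference between the 3′ and the 5′ probe set was 0.859, 0.629 and 0.646 (log2) for untreated replicates 1, 2 and 3 and 0.384, 0.508 and 0.480 with PXD101. By this measure replicate 2 lay with replicates 1 and 3. For GAPDH the same difference was -0.026, 0.019 and -0.044 in untreated cells and 0.025, 0.019 and 0.014 with PXD101, so there replicate 2 lay with the PXD101 arrays. The part of these differences in the results was not tested.

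All levels are log2 values, and a difference is the mean with PXD101 minus the mean of untreated CP70, on the log2 scale. Each mean is over 3 arrays. The standard error (SE) given with a difference is that of the limma fit, which pools the spread of all 5 groups. At the genes called below, untreated CP70 had a median SD of 0.400 against 0.106 to 0.146 in the other groups. The SE can therefore understate the spread of the groups compared. A gene was called when its limma p, adjusted by Benjamini-Hochberg over all genes tested, was under 0.05. With all arrays, 2119 of 19775 genes were called, a share of 10.7%. Of these, 1101 were higher with PXD101 (5.57% of all genes tested) and 1018 were lower (5.15%). The smallest adjusted p was 0.0173. These calls also rest on the spread of the other 9 arrays: a fit of only the 6 arrays compared called 0 genes (smallest adjusted p 0.207, 4111 genes at an unadjusted p under 0.05). Only 378 of the called genes differed by at least 2-fold (1.91% of all genes), 156 of them higher and 222 lower.

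The counts moved with the arrays used. Without untreated replicate 2, 5736 genes were called (29.0%), 3335 of them higher (16.9%) and 2401 lower (12.1%). With replicate 2 as the only untreated array, limma called 0 genes. At an unadjusted p under 0.05 that comparison held 918 genes, 4.64% of those tested, and its smallest adjusted p was 0.156. The median SE of a gene was 0.162 there and 0.125 with all arrays. Leaving out any other single array also left 0 called genes. At an unadjusted p under 0.05, 3329 genes remained without untreated replicate 1 and 3499 without replicate 3. There were 4324, 4900 and 4780 such genes without PXD101 replicates 1, 2 and 3. These limits apply to each count of called genes given below. Counts within a gene list stand beside a background of 5.57% higher and 5.15% lower with all arrays, and of 16.9% and 12.1% without untreated replicate 2.

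**Figure D1:**
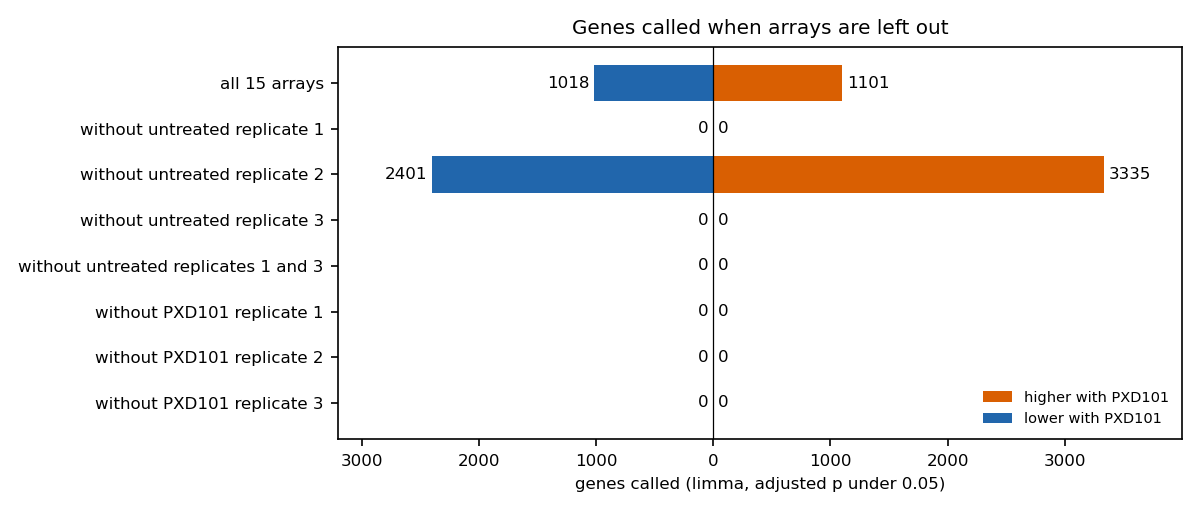
Genes called by limma in the comparison of PXD101 with untreated CP70 (horizontal axis, number of genes, lower to the left and higher to the right) when the arrays named on the vertical axis are left out. All 15 arrays gave 1018 lower and 1101 higher genes, leaving out untreated replicate 2 gave 2401 and 3335, and the other 6 settings gave 0.

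At the called genes, replicate 2 mostly lay between its group and the PXD101 arrays. The median level over the 1018 genes called lower was 9.41, 8.57 and 9.31 in untreated replicates 1, 2 and 3 and 8.19, 8.39 and 8.33 with PXD101. Over the 1101 genes called higher, the medians were 7.51, 8.39 and 7.65 in untreated CP70 and 8.59, 8.59 and 8.50 with PXD101. On a scale with the PXD101 mean at 0% and the mean of replicates 1 and 3 at 100%, replicate 2 had a median position of 29.7% at the lower genes and 20.2% at the higher ones. Replicates 1 and 3 lay outside the range of the PXD101 arrays at every called gene, which the call largely requires. Replicate 2 lay outside it on the same side at 865 of the 1018 lower genes and at 843 of the 1101 higher ones. Over all genes tested, all untreated arrays lay above the PXD101 arrays at 11.7% and below them at 10.5%. The median difference over the genes called lower was -0.65, and against replicate 2 alone it was -0.26. Over the genes called higher these values were 0.66 and 0.18. The median SD of a called gene was 0.400 in untreated CP70 and 0.106 to 0.146 in the other 4 groups.

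**Figure D2:**
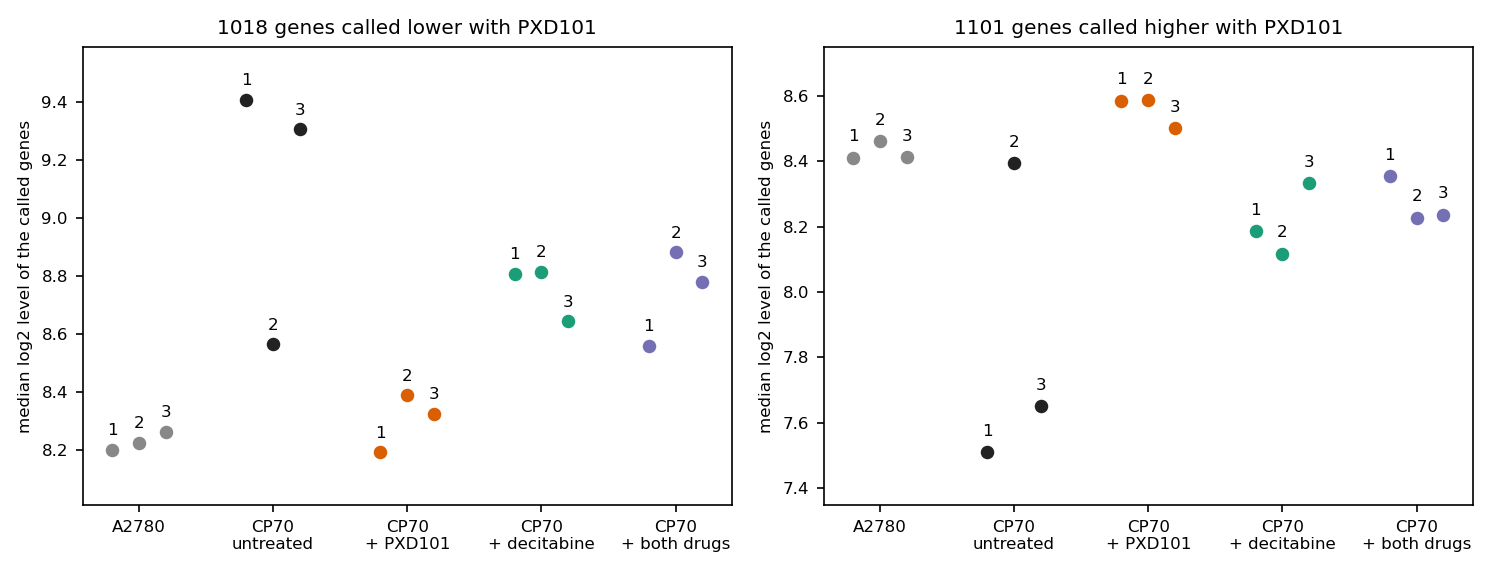
Median log2 level (vertical axis) over the 1018 genes called lower (left) and the 1101 genes called higher (right) with PXD101, for each of the 15 arrays, with replicate numbers beside the points. Untreated replicates 1 and 3 lie apart from the PXD101 arrays in both panels, and untreated replicate 2 lies at 8.57 and 8.39, near them.

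The largest fall was that of CALCB. This gene, which encodes a calcitonin gene-related peptide, was at 11.76, 8.37 and 11.81 in untreated replicates 1, 2 and 3 and at 4.85, 5.47 and 6.02 with PXD101. The groups did not overlap, and CALCB fell by 5.20 ± 0.70, or 36.8-fold (limma adjusted p = 0.0173). The difference from replicate 2 alone was -2.92 and was not called (adjusted p = 0.515). TAC1, which encodes the precursor of substance P, was at 8.35, 4.59 and 7.67 in untreated cells and at 2.89, 2.91 and 3.46 with PXD101. S100P, a calcium-binding protein, was at 9.56, 6.45 and 9.77 against 4.33, 5.04 and 5.44. In both genes replicate 2 lay nearer to the PXD101 arrays than to its own group, yet above all of them. TAC1 fell by 3.78 ± 0.71 and S100P by 3.66 ± 0.63. The other largest falls were NIBAN1 (-3.78), ATF3 (-3.53), INHBE, an inhibin beta subunit (-3.36), LAMP3, a lysosomal membrane protein (-3.33), and the long non-coding RNA CRNDE (-3.06). With PXD101, TAC1 in all 3 arrays, S100P, ATF3 and INHBE in replicate 1 and LAMP3 in replicate 3 lay under the lower quartile of gene values (4.34), where an array compresses folds.

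The largest rises were smaller. NES, which encodes the intermediate filament nestin, was at 6.27, 8.73 and 7.19 in untreated cells and at 9.11, 9.45 and 9.18 with PXD101, a rise of 1.85 ± 0.41. PEG10, an imprinted gene derived from a retrotransposon, was at 5.78, 7.75 and 5.92 against 8.10, 8.08 and 8.03, a rise of 1.58 ± 0.36. In both genes replicate 2 lay within 1 log2 unit of the PXD101 arrays and well above replicates 1 and 3. TMT1A rose by 1.88, VASH2, a tubulin carboxypeptidase, by 1.70, TTC12 by 1.62, CEP128, a centriole protein, by 1.53, ARHGEF40 by 1.45, and KANK2 rose 2.83-fold. With replicate 2 as the only control the differences of these 8 genes ran from 0.23 for CEP128 to 0.86 for TMT1A. Not all probe sets of these genes rose. Called higher were 1 of 4 for TMT1A and TTC12, 1 of 3 for VASH2 and KANK2, and 1 of 2 for NES. For CEP128 it was 2 of 5, for ARHGEF40 3 of 6 and for PEG10 2 of 2. The lowest difference of a probe set was -0.225 for TMT1A, -0.112 for VASH2, -0.052 for KANK2 and ARHGEF40, -0.017 for TTC12 and 0.019 for NES.

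Genes of the amino acid stress response were lower with PXD101. When amino acids run short or proteins misfold, kinases of this pathway slow translation, and the transcription factor ATF4 then raises genes that import and make amino acids and charge transfer RNAs. Of 43 measured genes of this list, 28 fell and 0 rose, which is 65.1% against the 5.15% of all genes that fell. The median difference over the 43 genes was -1.19, and without untreated replicate 2 it was -1.62, with 36 falls. Set against replicate 2 alone it was -0.42, with 0 calls and 6 genes at an unadjusted p under 0.05. The median level of the list was 10.83, 9.65 and 10.89 in untreated replicates 1, 2 and 3 and 8.52, 9.62 and 9.22 with PXD101. Replicate 2 thus lay close to PXD101 replicate 2, and PXD101 replicate 1 was the lowest.

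Among the factors of this pathway, ATF3, a repressor and activator induced by stress, was at 11.94, 9.65 and 11.71 in untreated cells and at 4.30, 9.42 and 8.97 with PXD101. It fell by 3.53 ± 1.00 (adjusted p = 0.0394), and PXD101 replicate 1 lay far below the other 2 treated arrays, which were close to untreated replicate 2. Without PXD101 replicate 1 the difference was -1.90 (adjusted p = 0.0996). NUPR1, a stress-induced chromatin protein, showed the same order, at 11.70, 9.71 and 11.60 against 6.27, 8.79 and 8.83, and fell by 3.04 ± 0.61. TRIB3, a pseudokinase that dampens the pathway, fell by 2.53 ± 0.56. ATF4 itself was at 13.16, 12.04 and 13.10 against 11.24, 12.33 and 11.80 and did not pass the test (-0.98 ± 0.30, adjusted p = 0.0507). For DDIT3, a factor of stress-induced death, the difference was -1.13 ± 0.52 (adjusted p = 0.175). In both genes replicate 2 lay within the range of the PXD101 arrays.

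The enzymes and transporters of the list followed. ASNS, which makes asparagine, was at 13.38, 11.74 and 13.29 in untreated cells and at 9.61, 11.001 and 10.81 with PXD101. It fell by 2.33 ± 0.42 (adjusted p = 0.0205), and replicate 2 lay 1.27 above the PXD101 mean. Of the 2 ASNS probe sets 1 was called lower, and the other was at -0.161. SLC1A5, a glutamine transporter, was at 10.32, 9.37 and 10.34 against 8.85, 9.07 and 8.90 and fell by 1.07 ± 0.21. EIF4EBP1, which restrains cap-dependent translation, was at 11.51, 10.22 and 11.51 against 9.64, 9.87 and 9.82 and fell by 1.30 ± 0.25. NIBAN1, a stress-induced regulator of translation, was at 11.01, 8.92 and 11.11 against 5.47, 7.04 and 7.18. In these 4 genes all untreated arrays lay above all PXD101 arrays, as they did in 18 of the 43 and in 11.7% of all genes tested. The genes that make serine and one-carbon units also fell, among them PHGDH (-0.83), PSAT1 (-0.92), PSPH (-0.98), MTHFD2 (-0.86) and ALDH1L2 (-2.38). The transporters SLC7A11, SLC3A2, SLC7A5, SLC7A1 and SLC1A4 fell by 1.45, 1.42, 1.39, 1.19 and 1.57.

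Aminoacyl-tRNA synthetases load amino acids onto transfer RNAs, and those of the cytosol are targets of ATF4. Of 17 measured, 7 fell and 0 rose, with a median difference of -0.48, and without untreated replicate 2 the counts were 9 and 1. WARS1, the tryptophan enzyme, was at 11.86, 10.57 and 11.87 in untreated cells and at 9.69, 9.96 and 10.00 with PXD101, a fall of 1.55 ± 0.26. SARS1, the serine enzyme, fell by 1.48 ± 0.29 and GARS1, the glycine enzyme, by 1.16 ± 0.23. The remaining falls were YARS1 (-0.95), AARS1 (-0.69), NARS1 (-0.62) and TARS1 (-0.48). Called lower were 2 of 2 probe sets for WARS1 and SARS1 but 1 of 2 for YARS1, whose other probe set was at 0.179. Replicate 2 lay above all PXD101 arrays for WARS1, SARS1, GARS1 and YARS1, though nearer to them than to replicates 1 and 3. Over the 17 genes the median difference from replicate 2 alone was -0.10.

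**Figure D3:**
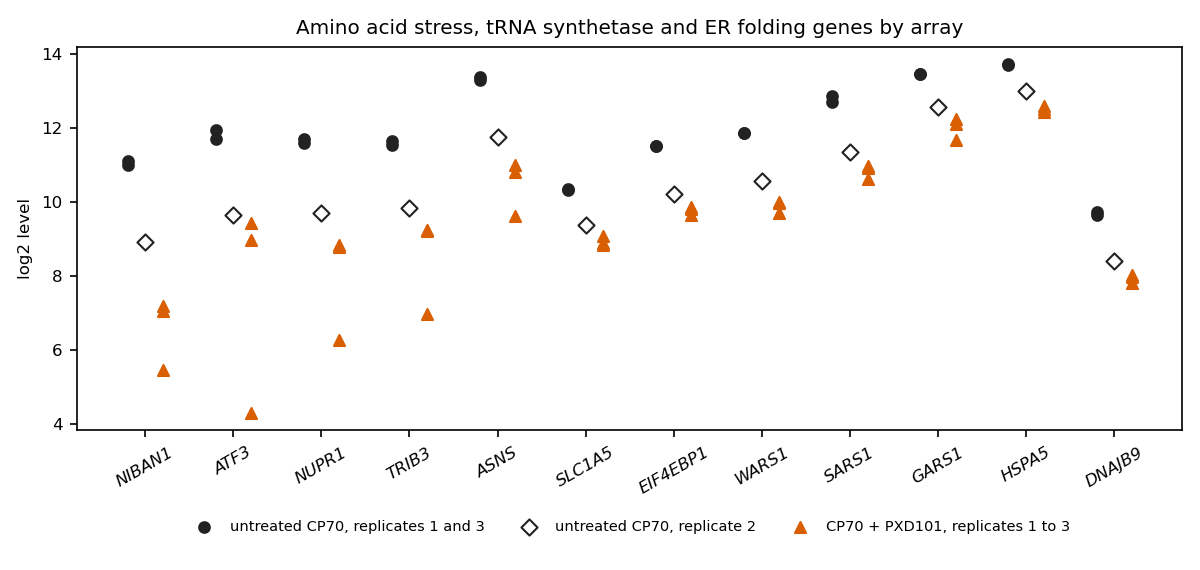
Log2 level (vertical axis) of 12 genes of the amino acid stress response, the tRNA synthetases and folding in the endoplasmic reticulum, in the 6 arrays of the comparison: untreated replicates 1 and 3 (filled circles), untreated replicate 2 (open diamonds) and PXD101 (triangles). Replicates 1 and 3 are highest at each gene, and replicate 2 lies between them and the PXD101 arrays. PXD101 replicate 1 is the lowest point at each gene.

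Because these genes moved together, their promoters were searched for the composite element that ATF4 binds with C/EBP factors, spelled TGATGNAAN, on both strands of RefSeq windows of 300 bases (GRCh38.p14, 250 before to 50 after the gene start). It was present in 4 of the 22 promoters matched among the 28 genes of the stress list that fell (18.2%) and in 2 of 6 among the tRNA synthetases that fell. The share was 2.7% of promoters of all genes tested, 5.4% of those called lower and 1.7% of those called higher. The stretches below lie upstream of the gene start of 4 genes that fell, at chr1:212565196-212565244 (plus strand), chr15:40953241-40953289 (plus strand), chr19:46784883-46784931 (minus strand) and chr16:70289666-70289714 (minus strand), and they are shown because the match is the feature these promoters share. Each is printed along the strand of its gene, with the match in capitals. CHAC1 and AARS1 hold it on the opposite strand. A match describes the letters and is not evidence of binding.
ATF3: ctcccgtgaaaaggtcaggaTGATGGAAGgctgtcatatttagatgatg
CHAC1: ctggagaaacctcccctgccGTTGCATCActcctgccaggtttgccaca
SLC1A5: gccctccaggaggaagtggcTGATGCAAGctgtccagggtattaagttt
AARS1: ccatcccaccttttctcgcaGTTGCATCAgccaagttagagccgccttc
The matches began 191, 210, 97 and 188 bases before the gene start. CHAC1, which degrades glutathione, was at 10.57, 8.34 and 10.43 in untreated cells and at 6.24, 8.92 and 7.98 with PXD101, a fall of 2.07 ± 0.62 (adjusted p = 0.0465), with replicate 2 inside the range of the treated arrays. Without PXD101 replicate 1 its difference was -1.33 (adjusted p = 0.187).

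Folding genes of the endoplasmic reticulum went partly the same way. Of 24 measured, 10 fell (41.7% against 5.15% of all genes) and 2 rose (8.33% against 5.57%), with a median difference of -0.21. Without untreated replicate 2 the counts were 11 and 4. HSPA5, the main chaperone of this compartment, was at 13.72, 13.01 and 13.70 in untreated cells and at 12.43, 12.50 and 12.59 with PXD101. It fell by 0.97 ± 0.17 (adjusted p = 0.0205), with no overlap of the groups. DNAJB9, a co-chaperone, was at 9.72, 8.39 and 9.66 against 7.80, 7.96 and 8.02 and fell by 1.33 ± 0.26. The sensors and factors of the unfolded protein response that fell were ERN1 (-1.70), XBP1 (-1.79) and ATF6 (-0.68). Of the 3 ERN1 probe sets 1 was called lower, and the smallest change was -0.126. The 2 rises were CRELD2 (0.78) and PDIA4 (0.56), both folding factors, and for CRELD2 the untreated values were 9.12, 10.21 and 9.12 against 10.28, 10.21 and 10.28. At CRELD2, replicate 2 was therefore level with the PXD101 arrays.

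DNA replication genes were higher with PXD101. Their products load and run the replicative helicase, synthesise DNA and supply nucleotides, and they are raised by E2F factors as cells enter S phase. Of 41 measured, 23 rose and 0 fell (56.1% against 5.57% of all genes that rose), with a median difference of 0.70. Without untreated replicate 2, 38 rose (92.7% against 16.9% of all genes) and the median was 1.02. The median difference from replicate 2 alone was 0.04, and 1 gene had an unadjusted p under 0.05. The list median was 8.66, 9.77 and 8.67 in untreated replicates 1, 2 and 3 and 9.96, 9.68 and 9.81 with PXD101. Replicate 2 thus lay inside the range of the PXD101 arrays for this list.

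Of the helicase genes, GINS4, a subunit of the active helicase, was at 7.49, 8.60 and 7.45 in untreated cells and at 8.88, 8.95 and 8.96 with PXD101, a rise of 1.08 ± 0.22. MCM4, a subunit of the helicase ring, was at 8.40, 9.99 and 8.56 against 10.34, 10.26 and 10.32 and rose by 1.32 ± 0.30. CDC45, which activates the ring, was at 6.76, 8.50 and 6.97 against 8.82, 8.60 and 8.66 and rose by 1.28 ± 0.31. In these 3 genes replicate 2 lay below all PXD101 arrays but nearer to them than to replicates 1 and 3. Of their probe sets, 1 of 4 was called higher for GINS4, 3 of 5 for MCM4 and 1 of 1 for CDC45. The lowest difference of a probe set was -0.108 for GINS4 and 0.004 for MCM4. GINS2 had the largest difference of the list (1.57 ± 0.44), at 7.40, 9.80 and 7.60 against 10.06, 9.65 and 9.80, with replicate 2 among the treated arrays. Of the enzymes of synthesis, PRIM1, a primase subunit, rose by 1.18 ± 0.26, the polymerase subunits POLA1, POLD1 and POLE2 by 0.98, 1.17 and 1.18, and LIG1, which joins Okazaki fragments, by 1.18 ± 0.32. Without untreated replicate 1 the difference of LIG1 was 0.74, and without untreated replicate 2 that of POLE2 was 1.78. PCNA, the sliding clamp, was at 11.74, 12.39 and 11.76 against 12.38, 11.97 and 12.28 and did not pass the test (0.25 ± 0.16, adjusted p = 0.350).

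The same promoter windows were searched for the E2F motifs TTTCCCGC and TTTGGCGC on both strands. A match was present in 9 of the 20 promoters matched among the 23 replication genes that rose (45.0%) and in 14 of 36 among all measured replication genes. It was present in 2.9% of promoters of all genes tested, 6.1% of those called higher and 2.9% of those called lower. The stretches of 4 genes that rose are shown, as the replication list is the one in which this match was most frequent among the lists searched. They lie at chr16:85688958-85689005 (minus strand), chr19:48170431-48170478 (minus strand), chr6:52284889-52284936 (minus strand) and chr13:33818074-33818121 (plus strand) of GRCh38.p14, and the capitals mark the match.
GINS2: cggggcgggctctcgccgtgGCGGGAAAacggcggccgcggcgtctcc
LIG1: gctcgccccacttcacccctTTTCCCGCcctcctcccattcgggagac
MCM3: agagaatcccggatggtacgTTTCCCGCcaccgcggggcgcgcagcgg
RFC3: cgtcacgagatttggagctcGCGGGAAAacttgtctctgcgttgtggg
The matches began 31, 114, 174 and 55 bases before the gene start, on the opposite strand for GINS2 and RFC3. MCM3, a subunit of the helicase ring, rose by 0.71 and RFC3, a subunit of the clamp loader, by 0.73.

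Of 54 measured genes of mitosis and cell cycle control, 10 rose (18.5% against 5.57% of all genes) and 2 fell, with a median difference of 0.28. Without untreated replicate 2 the counts were 30 (55.6% against 16.9%) and 5. MKI67, a marker of dividing cells, was at 9.42, 10.23 and 9.14 in untreated cells and at 10.49, 10.42 and 10.46 with PXD101, a rise of 0.86 ± 0.21. CDK2, a kinase of S phase entry, rose by 0.85 ± 0.21, CENPA, the histone of centromeres, by 0.53, PLK4, which starts centriole copying, by 0.55, and CCNB1, the mitotic cyclin, by 0.94. The 2 falls were CDKN1A (-0.79) and NUF2, a kinetochore protein (-0.41). Of 34 measured genes of mismatch, excision and crosslink repair, 9 rose (26.5%) and 0 fell, with a median of 0.29, and without untreated replicate 2 the counts were 19 (55.9%) and 3. They included XPA, a damage recognition factor of excision repair, at 7.84, 8.93 and 7.99 against 9.19, 9.18 and 9.13 (0.92 ± 0.21), FANCI (1.05) and the helicase BRIP1 (0.93), both of crosslink repair, and BRCA1 (0.48). The medians of these lists against replicate 2 alone were -0.01 and 0.05.

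Metallothioneins, small proteins that bind zinc and other metals, were higher with PXD101. Of 8 measured, 5 rose (62.5% against 5.57% of all genes) and 0 fell, with a median difference of 0.58. The counts were the same without untreated replicate 2. MT1X was at 8.82, 9.46 and 8.83 in untreated cells and at 10.08, 9.99 and 10.15 with PXD101, a rise of 1.03 ± 0.20 (adjusted p = 0.0210). MT1F was at 7.61, 7.72 and 7.56 against 8.20, 8.03 and 8.29 and rose by 0.54 ± 0.14. At MT1F replicate 2 lay with its own group, and against it alone the difference was 0.45. MT2A, MT1H and MT1E rose by 0.80, 0.70 and 0.62. All untreated arrays lay below all PXD101 arrays at 6 of the 8 genes, and at 10.5% of all genes tested. Against replicate 2 alone the list's median was 0.33. Probe sets of this family can share sequence, so its members may not be independent.

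**Figure D4:**
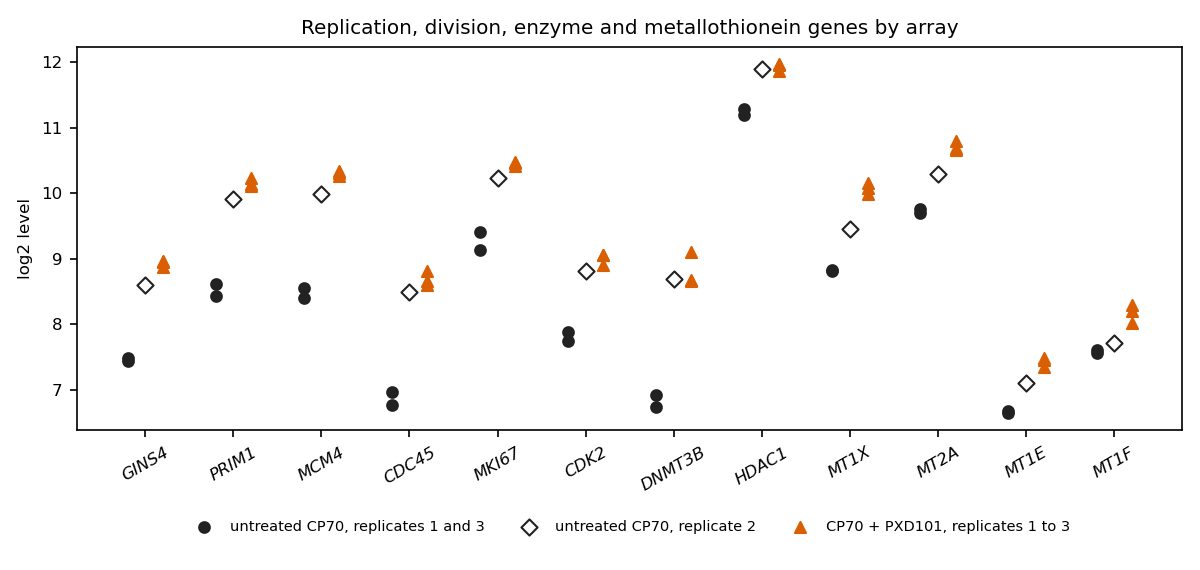
Log2 level (vertical axis) of 12 genes of replication, division, DNA methylation, deacetylation and metal binding in the 6 arrays of the comparison: untreated replicates 1 and 3 (filled circles), untreated replicate 2 (open diamonds) and PXD101 (triangles). Replicate 2 lies near the PXD101 arrays for the replication genes and HDAC1, lies between the groups for MT1X and MT2A, and lies near replicates 1 and 3 for MT1F.

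The zinc-dependent deacetylases are the targets of the drug. Of these 11 enzymes, 1 rose and 0 fell (9.09% higher against 5.57% of all genes), and without untreated replicate 2 the counts were 2 and 1. HDAC1 was at 11.20, 11.90 and 11.29 in untreated cells and at 11.97, 11.96 and 11.87 with PXD101, and it rose by 0.47 ± 0.14 (adjusted p = 0.0458). Replicate 2 lay within the PXD101 range, and median centring of the arrays ended this call (adjusted p = 0.0551). HDAC2 was at 11.14, 11.22 and 11.15 against 11.15, 10.98 and 11.03 (-0.12 ± 0.08), and HDAC3, which acts in the NCoR complex, at 8.81, 9.28 and 8.91 against 9.28, 9.17 and 9.17 (0.21 ± 0.12). Neither passed the test with all arrays, and without untreated replicate 2 HDAC3 did (0.35, adjusted p = 0.0268). At the probe sets used, the differences of HDAC4 to HDAC11 ran from -0.52 for HDAC5 to 0.24 for HDAC6, and none was called with all arrays. Other probe sets of these genes reached 0.755 for HDAC8 and 0.869 for HDAC9. Of the 3 HDAC8 probe sets, 1 was called higher. HDAC5 was called as lower without untreated replicate 2 (-0.64, adjusted p = 0.0237), after median centring (adjusted p = 0.0481) and after quantile normalization (adjusted p = 0.0406). Among 24 partners, readers and writers of acetylation, 4 rose and 1 fell (8 and 4 without untreated replicate 2). SIN3A, a scaffold of deacetylase complexes, was at 7.91, 8.36 and 7.99 against 8.63, 8.93 and 8.76 and rose by 0.69 ± 0.12. MTA2 and CHD4, both of the NuRD complex, rose by 0.78 and 0.64, and TBL1X of the NCoR complex fell by 0.79. At MTA2 the untreated values were 6.61, 7.06 and 7.15 against 7.59, 7.85 and 7.72, so replicate 2 lay with its own group there.

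Genes that deacetylase inhibitors are known to raise did not move as one. Of 28 measured, 4 rose (14.3% against 5.57% of all genes) and 8 fell (28.6% against 5.15%), with a median difference of -0.03. Without untreated replicate 2 the counts were 6 and 12. Of the 4 that rose, 3 were the metallothioneins MT1X, MT2A and MT1E, and the other was MICB, a ligand of natural killer cells (0.39). CDKN1A, which stops the cell cycle, was at 9.91, 9.10 and 9.95 in untreated cells and at 8.65, 9.04 and 8.91 with PXD101, a fall of 0.79 ± 0.21 (adjusted p = 0.0356). KLF4, a transcription factor of differentiation, was at 8.11, 5.86 and 8.24 against 4.003, 5.07 and 4.84 and fell by 2.77 ± 0.50. At both genes all untreated arrays lay above the treated ones. ULBP2, another natural killer ligand, fell by 2.22 ± 0.45, the dehydrogenase DHRS2 by 1.59, SAT1, which breaks down polyamines, by 1.51, GADD45A, a DNA damage response gene, by 1.06, RHOB, a small GTPase, by 1.03, and the lysosomal protease CTSD by 0.65. Against replicate 2 alone the median of the list was -0.002.

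Of 38 immediate early genes, which answer growth factors and stress within minutes, 12 fell and 0 rose, with a median of -0.53 and 24 falls without untreated replicate 2. They included ATF3, KLF4, JUN (-1.19, and -0.78 without PXD101 replicate 1), KLF10 (-0.98) and the matricellular genes CCN1 (-1.02) and CCN2 (-1.02). CCN1 was at 9.19, 8.66 and 9.31 in untreated cells and at 7.70, 8.46 and 7.92 with PXD101. FOS (-0.70 ± 0.32) and EGR1 (-0.27 ± 0.24) did not pass the test. Against replicate 2 alone the list's median was -0.14. Of 29 targets of p53, 8 fell and 2 rose (11 and 3 without untreated replicate 2). AEN, a nuclease, fell by 0.61 ± 0.11 and PLK3, a stress kinase, by 0.60. TNFRSF10B, a death receptor for TRAIL, was at 11.92, 10.65 and 12.001 against 9.84, 10.46 and 10.32 and fell by 1.32 ± 0.29. Called lower were 1 of 3 probe sets for PLK3 (smallest change -0.073) and 1 of 4 for TNFRSF10B (smallest change -0.102). FAS, another death receptor, and XPC, of excision repair, rose by 0.68 and 0.60. In the list of BCL2 family and apoptosis genes 5 of 33 fell (15.2% against 5.15% of all genes) and 2 rose (6.06% against 5.57%), and without untreated replicate 2 the counts were 8 and 6. The BH3 proteins PMAIP1 and HRK fell by 2.21 and 1.74, and CASP2, an initiator caspase, rose by 1.02.

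The DNA methylation machinery was divided. Of 20 genes, 4 rose and 3 fell (8 and 4 without untreated replicate 2). DNMT3B, a de novo methyltransferase, was at 6.74, 8.69 and 6.92 in untreated cells and at 9.11, 8.66 and 8.68 with PXD101, a rise of 1.37 ± 0.35 (adjusted p = 0.0315). Replicate 2 lay among the treated arrays. DNMT3A rose by 0.84 ± 0.22, HELLS, a chromatin remodeller, by 0.76 and UHRF1, which recruits DNMT1 to replicated DNA, by 1.18. Called higher were 1 of 3 probe sets for DNMT3A (lowest difference 0.006) and 1 of 5 for HELLS (lowest -0.338). DNMT1, the maintenance enzyme, was at 9.53, 9.99 and 9.43 against 9.88, 9.91 and 9.85 and did not pass the test (0.23 ± 0.13, adjusted p = 0.270). TDG, which starts repair of oxidised methylcytosine, was at 10.79, 10.72 and 10.73 against 10.47, 10.51 and 10.42 and fell by 0.28 ± 0.08, with replicate 2 level with its own group. Of 26 cancer-testis antigens, which DNA methylation silences in many tissues, PRAME (0.94 ± 0.22) and MAGEC3 (0.34 ± 0.09) rose and 0 fell. That is 7.69%, near the 5.57% of all genes called higher, and without untreated replicate 2 the counts were 2 and 1. MAGEC3 stayed between 2.99 and 3.49 in all 6 arrays, near the bottom of the scale.

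In metabolism, 8 of 35 hypoxia and glycolysis genes rose (22.9%) and 2 fell (5.71%), and without untreated replicate 2 the counts were 18 and 8. The rises included the glycolytic enzymes HK1 (0.69), TPI1 (0.46) and PFKM (0.32), while HK2 (-0.58) and the growth factor VEGFA (-1.19) fell. In the 11 fatty acid synthesis genes there were 3 rises, ACLY (0.81), LPIN1 (0.57) and ACACA (0.50), and 1 fall, the malic enzyme ME1, at 10.67, 9.33 and 10.65 against 8.97, 9.04 and 8.99 (-1.21 ± 0.25), with 6 rises and 1 fall without untreated replicate 2. Of 16 genes of sterol synthesis and uptake 4 fell, among them SREBF2 (-0.50), INSIG1 (-0.69) and SC5D (-0.59), and 1, the prenyl synthase FDPS, rose (0.84). Without untreated replicate 2 the sterol list held 4 falls and 4 rises. HMOX1, which degrades heme, was at 11.16, 8.38 and 10.85 against 7.95, 7.84 and 7.97 and fell by 2.21 ± 0.50. In its list of 30 NRF2 and thiol genes 4 fell and 1, PGD of the pentose phosphate path, rose (0.68), and without untreated replicate 2 there were 8 falls and 6 rises. Of 32 genes of oxidative phosphorylation 3 rose (9.38% against 5.57% of all genes) and 0 fell, while without untreated replicate 2 there were 12 rises (37.5% against 16.9%) and 1 fall. The 3 that rose were NDUFS3 (0.53), SDHA (0.51) and NDUFA2 (0.50).

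For nucleolus and ribosome biogenesis 5 of 30 genes fell and 1 rose, while without untreated replicate 2 there were 6 falls and 11 rises. WDR43, of the small subunit processome, was at 10.04, 9.97 and 10.22 in untreated cells and at 9.63, 9.55 and 9.73 with PXD101 and fell by 0.44 ± 0.09, with replicate 2 level with its group. NOP58, a core protein of small nucleolar particles, fell by 0.66 and RRN3, a factor of RNA polymerase I, by 0.60. Among 53 genes of the matrix and its remodelling 7 fell (13.2% against 5.15% of all genes) and 4 rose (7.55% against 5.57%). Without untreated replicate 2 the counts were 15 and 8. The fibronectin receptor subunit ITGA5 was at 8.74, 7.90 and 8.65 against 7.61, 7.66 and 7.33 and fell by 0.90 ± 0.18. The proteases MMP3 and MMP10 each fell by 0.89, and LOXL2, which crosslinks collagen, rose by 1.08. Of the 4 LOXL2 probe sets 1 was called higher, and the lowest difference was -0.146. Of 24 histone genes 2 fell (8.33% against 5.15% of all genes) and 0 rose, with a median difference of -0.275. Without untreated replicate 2, 10 histone genes fell (41.7% against 12.1%) and 1 rose. Few genes were called among 46 interferon-stimulated genes, 29 cytokines and NF-kB targets and 20 heat shock genes. The interferon list held 1 rise, GBP1 (0.90, and 0.60 without untreated replicate 1), and 1 fall, ISG20. The cytokine list held 2 falls, PTGS2 and LIF, and the heat shock list held 0 calls. Without untreated replicate 2 the interferon list held 2 falls and 7 rises. The cytokine list then held 4 falls and 2 rises, and the heat shock list 1 fall and 5 rises.

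**Figure D5:**
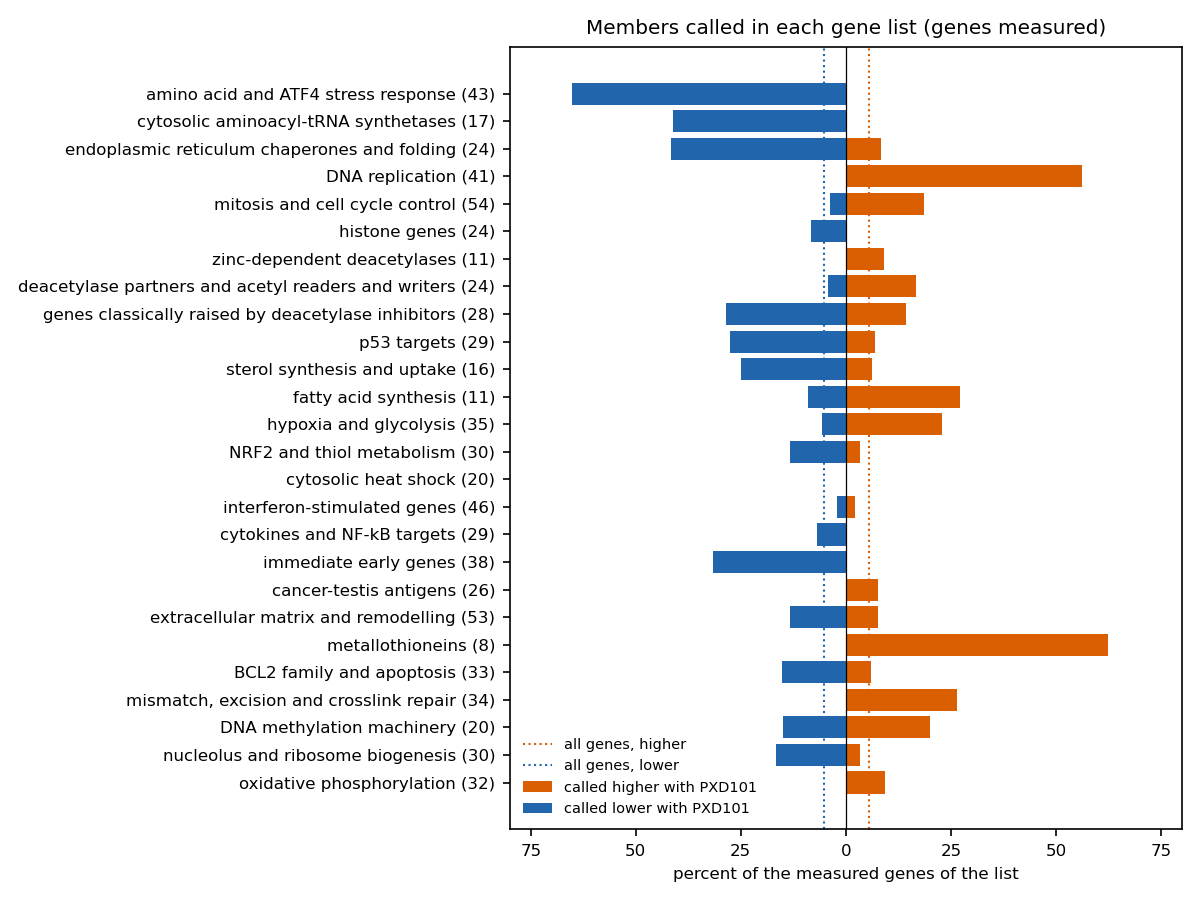
Percent of the measured genes of each list (horizontal axis) called lower (left) or higher (right) with PXD101, with the number measured in brackets on the vertical axis. Dotted lines mark the 5.15% of all genes called lower and the 5.57% called higher, and the longest bars are the amino acid stress list (65.1% lower), metallothioneins (5 of 8 higher) and DNA replication (56.1% higher).

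The markers of the labelled cell type were checked in the same arrays. Of 16 markers of ovarian carcinoma epithelium, the folate receptor FOLR1 lay between 10.81 and 11.83 in the 6 arrays and PAX8 between 6.97 and 7.39. WT1, MUC16, CDH1 and SOX17 lay at or below 4.22, near the lower quartile of gene values. KRT18 lay between 8.92 and 9.78 and EPCAM between 6.40 and 7.32. KRT19 alone was called (0.80 ± 0.21, higher), at levels of 4.04 to 5.27. Of its 2 probe sets 1 was called, and the other was at -0.262. Without untreated replicate 2, KRT19 was called higher and KRT18 lower (-0.74). Of markers of other cell types, 0 of 12 for leukocytes, 0 of 9 for keratinised cells and 1 of 14 for fibroblasts and endothelium (ACTA2, smooth muscle actin, 1.01 ± 0.24) were called. Without untreated replicate 2 the fibroblast and endothelial list held 2 rises, and the leukocyte and keratin lists held 0 calls. The median level of the leukocyte list was 4.31 to 4.43 in untreated cells and 4.40 to 4.46 with PXD101, and PTPRC lay between 3.67 and 4.32. For the fibroblast and endothelial list the medians were 5.98 to 6.13 and 6.07 to 6.18, and for the keratin list 4.20 to 4.40 and 4.27 to 4.44. Some members of the fibroblast and endothelial list lay well above its median. In the 6 arrays DCN lay between 9.55 and 10.13, ACTA2 between 9.84 and 11.52 and THY1 between 7.83 and 8.76.

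A few more genes whose groups did not overlap were picked after their values were seen. They came from the 14 genes with the smallest p against replicate 2 alone, so their separation from it was part of the choice. IL1RAPL1, POU3F1, LSM14B and CSH1, also among the 14, were not called with all arrays. At these genes replicate 2 lay apart from all the other arrays compared. FGF19, a secreted growth factor, was at 7.59, 5.58 and 7.20 in untreated cells and at 4.49, 4.47 and 4.48 with PXD101, and fell by 2.31 ± 0.34 (adjusted p = 0.0173). ITPR1, a calcium channel of the endoplasmic reticulum, was at 9.19, 6.89 and 9.20 against 5.67, 5.97 and 5.77 and fell by 2.63 ± 0.42. PRNP, the prion protein gene, was at 11.61, 10.80 and 11.52 against 9.91, 9.93 and 10.06 and fell by 1.35 ± 0.18. In these 3 genes replicate 2 lay between the groups. ZNF141, a zinc finger gene, was at 4.63, 4.49 and 4.57 against 5.36, 5.47 and 5.47, so all untreated arrays lay together. It rose by 0.87 ± 0.14, but its untreated values lay near the lower quartile of gene values (4.34). Of its 2 probe sets 1 was called higher, and the other was at -0.04. Against replicate 2 alone none of them was called. In that comparison 14 genes had an unadjusted p under 0.001, fewer than such a threshold passes by itself among the genes tested.

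Another comparison was available in the cells given decitabine. Its differences use none of the 6 arrays above, but its SE and p came from the fit of all 15 arrays. CP70 with both drugs minus CP70 with decitabine gives the change with 24 h of PXD101 on top of decitabine, so the exposure is shorter than the 48 h of PXD101 alone and the values are given side by side. Limma called 2 genes there (0.0101% of those tested), DPPA2 and DPPA4, both higher, and 929 genes had an unadjusted p under 0.05. With untreated replicate 2 left out of the fit, the same 2 genes were called and 1263 had an unadjusted p under 0.05. Over the 1018 genes called lower with PXD101 alone, the median difference was -0.002. Over the 1101 genes called higher it was 0.033. ATF3 was at 11.26, 11.19 and 10.74 with decitabine and at 10.33, 11.63 and 11.49 with both drugs. GINS4 was at 8.47, 8.32 and 8.38 against 8.89, 8.69 and 8.65. At ATF3 these groups overlapped, and at GINS4 the arrays with both drugs lay above those with decitabine. The differences were 0.09 ± 1.00 for ATF3 and 0.35 ± 0.22 for GINS4, and neither gene was called. How many of all genes had no overlap between these groups was not counted.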

How the data were processed

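RNA of A2780 and CP70 was amplified with the NuGEN WT-Ovation Pico system and hybridised to Affymetrix arrays, per the labels' protocols. The authors deposited 1 table of log2 values for 54675 probe sets on 15 arrays, with values from 2.39 to 14.5. Per the submitters' processing notes, R 2.10.1 and affy were used, and how the values were background-corrected and normalized is not stated in those notes. Arrays give no counts, and their number limits the precision. Genes were named from the platform annotation, updated through Entrez IDs, for 41097 probe sets with 1 symbol (41037 matched). The probe sets with several symbols (1801) or none (11777) and 62 controls were left out. For each of 19775 genes the probe set of highest mean level was taken. More than 1 probe set was present for 10523 genes, and the others of a gene can differ from the one taken. Counts of probe sets are given above for some genes only.

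Limma 3.58.1 in R 4.3.3 (lmFit, eBayes) was fitted to all 15 arrays with group means and tested on simulated data. Rank product, named in the series' design text, was computed in numpy 2.4.6 (9 pairwise differences, 100 permutations, under 5% false positives). The alternatives were other array sets, a replicate block, array weights, centring, quantile normalization, probe set rules and a 2-fold minimum. The replicate numbers did not pair the arrays. Genes named were the 8 largest rises and falls called without overlap of the groups, up to 4 members with the smallest p of each list, HDAC1 to HDAC11, DNMT1, DNMT3A and DNMT3B. A rule for genes called in all 3 fits (with all arrays, without untreated replicate 2 and against it alone) named 0. Any other gene was chosen after its values were seen. The comparison and its 30 gene lists (853 genes, 82 without a probe set) were chosen with earlier results of these data known, so lists are described by counts and medians with no test.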

Additional observations from a re-analysis of the deposited data

Results flagged for a closer look

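The change with PXD101 on top of decitabine minus the change with PXD101 alone was tested within the limma fit, although the exposures differed (24 h and 48 h). It differed at 3 genes, DPPA4, TPT1-AS1 and TRIML2, all with a more positive change on top of decitabine, and 3576 genes had an unadjusted p under 0.05. DPPA4, a gene of pluripotent cells, was at 4.87, 4.60 and 4.45 with decitabine and at 5.81, 5.78 and 5.86 with both drugs. It was at 3.19, 3.42 and 3.25 untreated and at 3.15, 3.24 and 3.22 with PXD101 alone. These untreated and PXD101 values lay under the lower quartile of gene values (4.34), where an array compresses folds, so a change with PXD101 alone could be hidden. The difference of its changes was 1.26 ± 0.15 (adjusted p = 0.0111). For TPT1-AS1 it was 1.04 ± 0.13 and for TRIML2 0.95 ± 0.12. Without untreated replicate 2 the test called 4059 genes, and with replicate 2 as the only untreated array it called 0 (975 at an unadjusted p under 0.05, smallest adjusted p 0.0596). The result therefore depends on which untreated arrays are used.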

How the results depend on the processing

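The count of 2119 called genes (1101 higher, 1018 lower) was within 1.5 times under median centring, a filter at the median level, averaged probe sets and quantile normalization (1652 to 2564 genes). Of the called genes 52.0% were higher, and after median centring 40.5% (913 higher, 1339 lower). Leaving out 1 of the 6 arrays compared gave 0 to 5736 genes (0 to 3335 higher, 0 to 2401 lower). It gave 5736 without untreated replicate 2 and 0 without any of the other 5 of these arrays. With replicate 2 as the only untreated array, and in a fit of only the 6 arrays, 0 genes were called (918 and 4111 at an unadjusted p under 0.05). Array weights gave 8634 (4580 and 4054), and they weighted untreated replicate 2 at 0.158. The minimum change of 2-fold gave 378 (156 and 222), rank product 366 (136 and 230), rank product without untreated replicate 2, added after the data were seen, 619 (384 and 235), and every probe set 3203 (1619 and 1584). The replicate block gave 1198 (581 and 617). The numbers did not pair the arrays, as the deviations of same-numbered arrays correlated at -0.321, -0.287 and 0.167 and 0 of 6 arrays correlated best with their own number. The fit of the 6 arrays has fewer arrays to estimate the spread, and for the other settings the cause was not tested.

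Some genes changed sign among those named by the rule or given with a difference in the text. Against replicate 2 alone these were H4C8 (0.0807), H2AC6 (0.109), HSP90AA1 (-0.118), CMPK2 (-0.0745), CD14 (-0.0343), DCN (0.0147), PECAM1 (0.0642), HDAC3 (-0.0748), HDAC7 (-0.0727), DNMT1 (-0.110), EGR1 (0.272), FOS (0.0550), PCNA (-0.178) and POLE2 (-0.0173). With averaged probe sets they were ACACA (-0.0273), HK2 (0.0445), DSG3 (-0.0173), HDAC4 (0.0364), HDAC9 (0.248) and HDAC10 (-0.0024). After quantile normalization HDAC7 was at -0.0339 and LSM14B at -0.0017, and LSM14B was at -0.161 with array weights. Leaving out 1 array each, HDAC7 ranged from -0.0218 (without PXD101 replicate 2) to 0.238, HDAC9 from -0.225 to 0.0418 (without PXD101 replicate 1) and LSM14B from -0.100 (without untreated replicate 2) to 0.275. The cause was not tested. Of these, ACACA, HK2 and POLE2 were called with all arrays.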
